A study of Mus musculus with 20 samples.

Results

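Genes for the proteins of the cytosolic ribosome, and copies of those genes, were followed in aortic tissue of female mice in 3 tables, each restricted to genes with an adjusted p under 0.05. Members were the genes whose symbol starts with Rpl or Rps and a digit or with Rplp, or is Rpsa, without the Rps6k kinases. They numbered 19 of the 3696 genes listed in at least 1 table: 14 parent genes, 4 copies (symbols with -ps or ending in rt) and Rps4l, which fits neither class.

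The tables compared WT aged with WT young aorta, KO young with WT aged aorta, and KO aged with KO young aorta. Aged mice were 72 to 78 weeks old and young mice 12 to 15 weeks old. WT animals were labelled wild type. KO animals were labelled Knockdown-KO in the samples and Slc24a4 knockdown (Nckx4-/-) in the series text. Each of the 4 groups had 5 libraries, and each library pooled aortic tissue of 2 mice, so the spread behind each test is that between 5 pools. Slc24a4 encodes a potassium-dependent sodium/calcium exchanger. It was listed only in WT ageing, at a log2 fold change of −2.0 (SE 0.46, adjusted p = 1.4e-05) in the authors' deposited table, so the tables with a KO group hold no value that checks that label. The tables hold no value for a single library, and sequencing depth is unknown. Each gene is given by its mean normalized count over both groups, its log2 fold change and the standard error (SE) of that change. The fold changes are shrunken towards 0. Approximate group means were worked out from these values for equal group sizes, and carry no error of their own. A parent gene missing from a table was not called in it. In bulk tissue, fewer cells of a type and less RNA per cell cannot be told apart.

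The cytosolic ribosome joins a small subunit, which reads the messenger RNA, with a large subunit, which forms peptide bonds. Its proteins are needed in near equal amounts, and their messenger RNAs typically begin with a C and a run of pyrimidines, the terminal oligopyrimidine (TOP) start, through which mTORC1 and the protein LARP1 control their translation. Ribosomal protein messenger RNAs are abundant and have often been copied back into mammalian genomes, which left many processed pseudogenes and a few transcribed retrocopies.

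Parent genes fell in aged WT aorta wherever they were called. In WT aged against WT young aorta 9 of 76 listed parent genes were called, all 9 lower, and those described here had log2 fold changes of −0.18 to −0.59 in the authors' deposited table. These 9 genes make up 11.8% of the list, beside 12.0% of all tested genes called in this comparison, so the number called is close to the background. Genes called lower in WT aged aorta made up 6.76% of all tested genes. The median log2 fold change of the 9 parents was −0.23, against −0.35 for all genes called lower in the same authors' deposited table. How many of the 76 were tested is not known from the tables, and the other 67 were not called.

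Among large subunit genes, Rpl29 stood apart. Its mean normalized count of 1102 in the authors' deposited table gives group means of about 879.9 in WT aged and 1324 in WT young aorta. Its log2 fold change there was −0.59 (SE 0.11, adjusted p = 1.9e-07 in the authors' deposited table), which placed it at rank 183 of 1728 by p. Rpl29 encodes a small, lysine-rich protein of the large subunit that is also known as a heparin-binding protein. Rpl5, which carries the 5S ribosomal RNA into the large subunit and restrains MDM2 when ribosome assembly stalls, was at −0.28 (SE 0.089, adjusted p = 0.0079) in the authors' deposited table. Its group means were about 2327 in WT aged and 2826 in WT young aorta. Rpl31, whose protein lies at the exit of the peptide tunnel, was at −0.26 (SE 0.090, adjusted p = 0.011) in the authors' deposited table. Rpl7a, of the large subunit core, and Rpl12, at the base of the stalk that binds elongation factors, were both at −0.18 (SE 0.063 and 0.067) in the authors' deposited table. Apart from Rpl29, these large subunit changes lay between −0.18 and −0.28.

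Small subunit genes gave the other 4 calls, of which 3 are described. Rps3a1, whose protein sits near the exit channel of the messenger RNA, had the lowest p of these 3, with −0.25 (SE 0.069, adjusted p = 0.0020) in the authors' deposited table. Its group means were about 3727 in WT aged and 4432 in WT young aorta. Rps27a, which is made as a fusion with ubiquitin and so also supplies free ubiquitin, was at −0.23 (SE 0.096) in the authors' deposited table. Rps12, of the small subunit head, was at −0.22 (SE 0.091, adjusted p = 0.036) in the authors' deposited table. The 4 calls are 12.9% of the 31 small subunit genes and the 5 large subunit calls 11.1% of 45, so the subunits had similar shares of called genes; this difference was not tested.

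Markers of cell types moved beside these genes. Over all tested genes, 12.0% were called in WT ageing, 7.78% between KO young and WT aged aorta, and 14.4% in KO ageing. Fibroblast markers reached 50% of their list in WT ageing, where 6.76% of all tested genes were called lower. Endothelial markers reached 50% between KO young and WT aged aorta. Every other marker share was 30% or less, and 1 call on a list of 10 genes is already 10%. These shares were not tested against the background. Fibroblast markers were lower in WT aged aorta for 5 of 10 genes, led by Mfap5 (−1.34), higher in KO young aorta than in WT aged aorta for 3 (Mfap5 at 0.80, sign turned), and lower in KO aged aorta for 2 (Col1a2 at −0.23), in the authors' deposited tables. Of 10 smooth muscle markers, WT aged aorta had Actg2 lower (−0.94) and Des higher (0.39), and KO young against WT aged aorta had Synpo2 higher (0.27) and Smtn lower (−0.20, both signs turned), in the authors' deposited tables. In KO aged aorta Myocd was higher (0.58) while Lmod1 (−0.32) and Synpo2 (−0.21) were lower in the authors' deposited table. Of 10 adipocyte markers, Cidec (0.45) and Cfd (0.89) were higher in WT aged aorta, Cidec was lower in KO young than WT aged aorta (−0.56, sign turned), and Ucp1 was higher in KO aged aorta (1.62), in the authors' deposited tables. Endothelial markers were not listed in WT ageing. They gave 2 higher and 3 lower of 10 in KO young against WT aged aorta, led by Nos3 (−0.71, sign turned), and 1 higher and 2 lower in KO ageing, led by Egfl7 (−0.60), in the authors' deposited tables. The cardiac and skeletal muscle markers Actc1 (−1.99) and Myh6 (−0.09) were lower in WT aged aorta, 2 of 10 on their list, in the authors' deposited table. Of 8 nerve markers, Snap25 was lower in KO young than WT aged aorta (−2.15, sign turned) and S100b higher in KO aged aorta (0.36) in the authors' deposited tables. No leukocyte or erythroid marker was listed. Mfap5, Col1a2, Dpt, Cidec, Synpo2, Nos3 and Egfl7 were called in comparisons that share a group, so their values do not count as separate evidence. Levels of markers that were not called were not analysed here, and the part of cell composition in the ribosomal protein values was not tested.

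**Figure D1:**
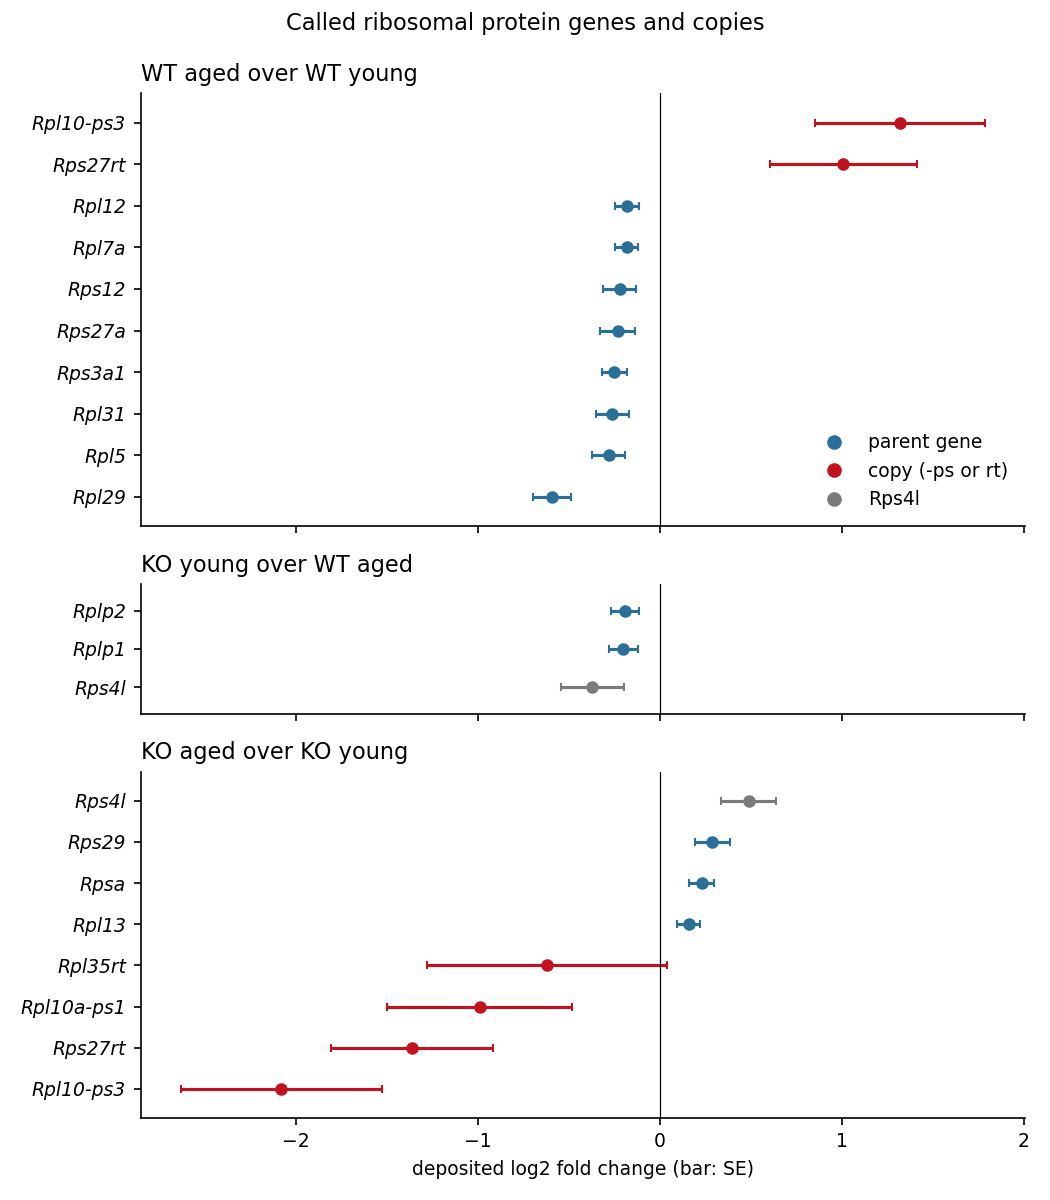
Deposited log2 fold change (horizontal axis) of the called members reported here, 1 panel per comparison, with points for parent genes, copies and Rps4l and bars for the SE given by the authors. In the panel of KO young over WT aged aorta the deposited sign is turned. Parent genes lie between −0.59 and 0.29, while the copies lie between −2.08 and 1.32 with wider bars.

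Copies behaved unlike the parents in aged WT aorta. Before their values, their sequences show what could be counted. Transcripts of 18 members were found in the GENCODE M21 annotation of the build GRCm38, while the submitters' processing notes name GRCm39; Rpl35rt was not matched. In these transcripts Rps27rt, a retrocopy on chromosome 9 of Rps27 from chromosome 3, had the same 252 coding bases as its parent, without the stop codon. The shared coding sequence is printed for the copy and the parent, in lower case throughout because no base differs.
Rps27rt: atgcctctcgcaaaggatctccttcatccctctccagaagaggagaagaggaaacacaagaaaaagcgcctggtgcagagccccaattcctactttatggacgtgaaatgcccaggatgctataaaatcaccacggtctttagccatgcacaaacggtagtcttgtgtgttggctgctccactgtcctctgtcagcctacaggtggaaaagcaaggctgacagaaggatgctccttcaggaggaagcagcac
Rps27: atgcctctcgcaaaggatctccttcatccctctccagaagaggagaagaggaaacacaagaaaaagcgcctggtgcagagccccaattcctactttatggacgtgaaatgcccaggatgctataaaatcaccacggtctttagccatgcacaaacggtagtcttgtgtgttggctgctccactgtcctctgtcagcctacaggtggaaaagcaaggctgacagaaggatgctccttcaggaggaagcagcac

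Rpl10 encodes a protein that joins the large subunit late in its assembly. Rpl10-ps3 lies on chromosome 9 and its parent Rpl10 on chromosome X, and here too all 642 coding bases were identical. GENCODE gives Rpl10-ps3 a protein-coding transcript, although the files name it a pseudogene. Coding bases 1 to 180 are printed, again with no base in capitals because none differs.
Rpl10-ps3: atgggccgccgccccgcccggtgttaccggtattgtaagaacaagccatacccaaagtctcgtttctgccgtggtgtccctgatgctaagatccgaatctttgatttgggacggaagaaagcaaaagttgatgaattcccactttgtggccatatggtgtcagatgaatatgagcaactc
Rpl10: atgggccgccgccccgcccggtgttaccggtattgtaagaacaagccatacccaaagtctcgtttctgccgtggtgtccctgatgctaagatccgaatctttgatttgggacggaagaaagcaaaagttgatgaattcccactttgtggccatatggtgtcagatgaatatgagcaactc

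The identity went on outside the coding region. A single identical run of 740 of the 768 bases of Rpl10-ps3 was found in an Rpl10 transcript, which leaves 28 bases outside it. For Rps27rt the run was 341 of 374 bases, which leaves 33. Rpl10a-ps1, on chromosome 1, was identical to transcripts of Rpl10a over all of its 654 bases. The parent genes Rpl10, Rps27, Rpl10a and Rpl35 were listed in none of the 3 tables. Reads that lie inside the identical runs cannot be assigned to copy or parent by sequence, and how the authors counted such reads is not given in the sources used here, so the values of these 3 copies are uncertain. Rpl35rt was not compared with Rpl35.

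Parents share sequence as well. Each called parent had 50-base windows that also occur in transcripts of other genes, from 30.7% of windows for Rplp2 to 83.2% for Rps12, with a median of 58.5%. For the 3 matched copies the share was 91.1% for Rps27rt, 96.1% for Rpl10-ps3 and 100% for Rpl10a-ps1. Rpl29 shared 66.2% of its windows, with transcripts of 82 other genes. The read length is not given in the sources used here; with windows of 100 bases Rpl10-ps3 still shared 95.8% and Rps27rt 89.5%. The parents' fold changes are therefore uncertain to the extent that reads were split among copies.

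**Figure D2:**
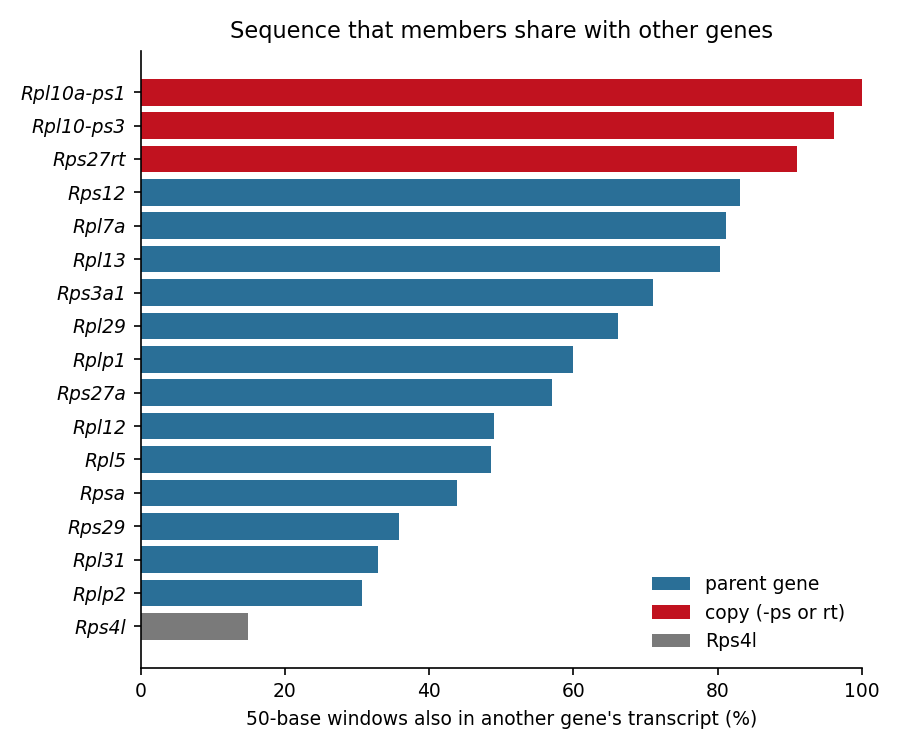
Share of the 50-base windows of each member's transcript that also occur in a transcript of another gene (horizontal axis, %), for the members reported here that were matched to GENCODE M21. The 3 copies lie at 91.1% to 100%, above every parent gene shown, and Rps4l is lowest at 14.9%.

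Both called copies rose in WT aged aorta. Rpl10-ps3 had a mean normalized count of 44.1 in the authors' deposited table, or about 63 in WT aged and 25.2 in WT young aorta. That is a log2 fold change of 1.32 (SE 0.47, adjusted p = 0.0024) in the authors' deposited table. Rps27rt had a mean of 56.4 in the authors' deposited table, or about 75.4 in WT aged and 37.4 in WT young aorta, with a log2 fold change of 1.01 (SE 0.40, adjusted p = 0.0065). Genes called higher in WT aged aorta made up 5.26% of all tested genes. How many copies were tested is not known, so the called copies give no share to set beside this. The SEs of the copies over the 3 tables ran from 0.40 to 0.66, against 0.063 to 0.11 for the parents, so the copies' values are the least precise of the members.

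In KO ageing the same copies moved the other way. Rpl10-ps3 was at −2.08 (SE 0.55, adjusted p = 0.00022) in the authors' deposited table, or about 22.2 in KO aged and 93.7 in KO young aorta. Rps27rt was at −1.36 (SE 0.44, adjusted p = 0.0017) in the authors' deposited table, or about 46.4 in KO aged and 119 in KO young aorta. For each copy the higher group was thus WT aged in WT mice and KO young in KO mice. The ageing effects share no library, so their difference was tested over the 438 genes listed in both ageing tables, as the difference of the deposited fold changes over the root of their summed squared SEs, with Benjamini-Hochberg adjustment. KO ageing minus WT ageing was −3.40 (SE 0.72, adjusted p = 3.7e-05) for Rpl10-ps3 and −2.37 (SE 0.60, adjusted p = 0.00059) for Rps27rt. In size these were the largest and the second largest differences of the 438 genes. By this test 131 of the 438 genes differed, which is 29.9%, and 77 of the 438 (17.6%) had opposite signs in WT and KO ageing. All 438 had already been called in both ageing comparisons, so a gene with opposite signs was likely to pass by that selection. The adjusted p therefore adds little to the opposite calls themselves. Higher in WT aged and lower in KO aged aorta, whether or not the difference passed, were 39 of the 438, or 8.90%. Neither copy was listed in KO young against WT aged aorta, which compares the group with the higher value of each genotype.

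**Figure D3:**
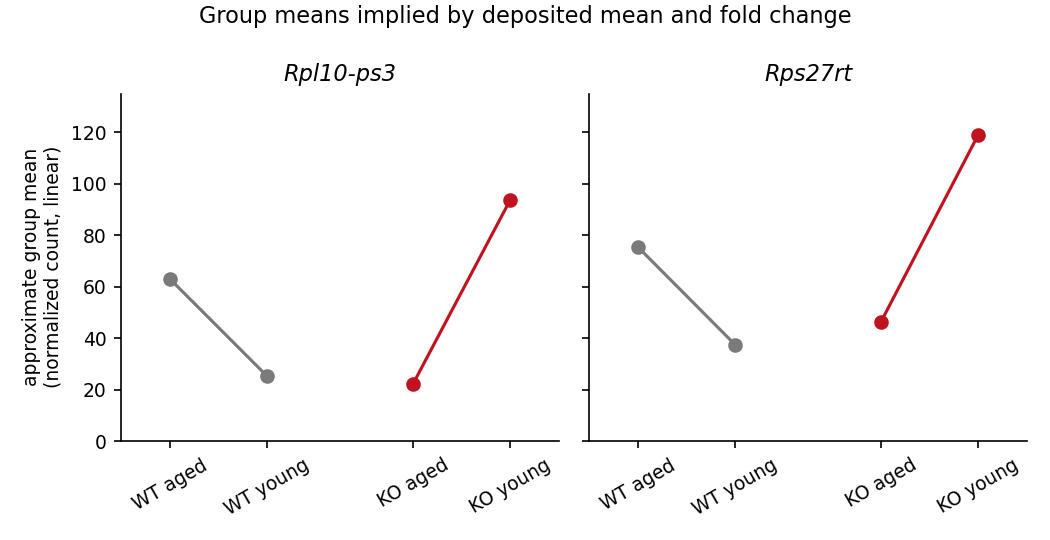
Approximate group means of Rpl10-ps3 and Rps27rt (vertical axis, normalized count), each pair worked out from the deposited mean and shrunken fold change of 1 table, with no error per library; the WT and KO pairs were normalized separately. WT aged lies above WT young, and KO aged lies below KO young, for both copies.

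**Figure D4:**
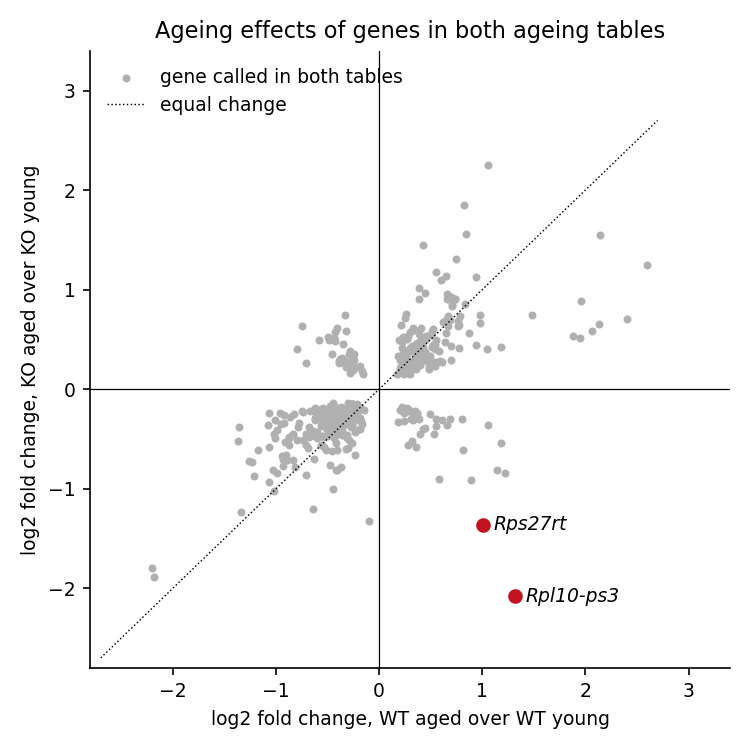
Log2 fold change of WT ageing (horizontal axis) against that of KO ageing (vertical axis) for the 438 genes listed in both ageing tables, with the dotted line marking equal change. Rpl10-ps3 (1.32 and −2.08) and Rps27rt (1.01 and −1.36) stand at the lower right edge.

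KO ageing listed a further pair of copies, and all 4 copies called there were lower in KO aged aorta. Rpl10a-ps1 was at −0.99 (SE 0.51, adjusted p = 0.016) in the authors' deposited table, with about 53.5 in KO aged and 106 in KO young aorta. Rpl35rt was at −0.62 (SE 0.66, adjusted p = 0.046) in the authors' deposited table, with about 80.5 in KO aged and 124 in KO young aorta. The SE of Rpl35rt is larger than its fold change because the fold change was shrunken while the p was not: its ratio of fold change to SE was 0.344 of the z that its p implies. Genes called lower in KO aged aorta made up 6.68% of all tested genes. The number of copies tested is unknown here too, so the 4 calls give no share.

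Parent genes were rarely called in KO ageing, and those called were higher. They numbered 3 of 76, or 3.95% of the list, where 14.4% of all tested genes were called in this comparison and 7.71% were called higher in KO aged aorta. Rpsa, whose protein belongs to the small subunit and is also known as a laminin receptor, was at 0.23 (SE 0.067, adjusted p = 0.0025) in the authors' deposited table. Its group means were about 4559 in KO aged and 3887 in KO young aorta. Rps29, a zinc-binding small subunit protein gene that is mutated in some patients with Diamond-Blackfan anaemia, was at 0.29 (SE 0.096, adjusted p = 0.0052) in the authors' deposited table, or about 2358 in KO aged and 1929 in KO young aorta. Rpl13, of the large subunit, was at 0.16 (SE 0.063, adjusted p = 0.033) in the authors' deposited table, or about 5818 in KO aged and 5207 in KO young aorta. No parent gene was listed in more than 1 table, so the difference between the ageing effects of WT and KO aorta could not be tested for any parent. Over all genes, 438 were listed in both ageing tables, of 1728 called in WT ageing and 2083 in KO ageing. With 9 parents called in WT ageing and 3 in KO ageing, the lack of overlap was not tested and is not read as a result.

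In KO young against WT aged aorta 2 parent genes were called, Rplp1 and Rplp2, both lower in KO young aorta. Genotype and age differ together in this comparison and cannot be told apart. Rplp1 and Rplp2 encode the acidic proteins that pair on the stalk of the large subunit and recruit the GTPase elongation factors. Rplp1 was at −0.20 (SE 0.079, adjusted p = 0.031) in the authors' deposited table, with the sign turned to KO young over WT aged. Its group means were about 7677 in KO young and 8819 in WT aged aorta. Rplp2 was at −0.19 (SE 0.075, adjusted p = 0.037) in the authors' deposited table, sign turned likewise, or about 3035 in KO young and 3462 in WT aged aorta. They were 2 of the 76 listed parents, or 2.63%, beside 7.78% of all tested genes called in this comparison. KO young aorta was lower for 3.70% of all tested genes and higher for 4.08%. Rplp0, which anchors both proteins, was not called.

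Rps4l, named as S4-like and given a processed transcript by GENCODE, was the remaining member. It was listed in both tables that hold KO young aorta. In KO young against WT aged aorta it was at −0.37 (SE 0.17, adjusted p = 0.037) in the authors' deposited table (sign turned), or about 351 in KO young and 454 in WT aged aorta. In KO ageing it was at 0.49 (SE 0.15, adjusted p = 0.0017) in the authors' deposited table, or about 507 in KO aged and 361 in KO young aorta. KO young was the lower group each time, and the tables share those libraries, so they do not count as separate evidence. Unlike the copies with a parent's exact sequence, Rps4l on chromosome 6 matched its parent Rps4x on chromosome X at 626 of 783 aligned coding bases, or 79.9%, and shared no 50-base window with it. The first 120 aligned bases are shown with the 26 that differ in capitals.
Rps4l: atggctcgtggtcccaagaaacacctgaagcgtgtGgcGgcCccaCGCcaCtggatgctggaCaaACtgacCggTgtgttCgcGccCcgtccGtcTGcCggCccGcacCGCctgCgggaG
Rps4x: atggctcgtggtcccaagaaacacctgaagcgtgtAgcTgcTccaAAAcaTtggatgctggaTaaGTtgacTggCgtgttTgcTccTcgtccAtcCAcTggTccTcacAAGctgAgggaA

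Start sites were examined because the called parents of WT ageing moved in 1 direction. The RefSeq promoter table of GRCm38.p6 held an entry for 10 members. A TOP-like start was taken as a C within 5 bases either side of the annotated start and followed on the same strand by at least 4 bases that are each C or T. It was found in 5 of the 10 entries, in 29 of 66 entries (43.9%) for the listed parents, and in 6027 of 32851 entries (18.3%) for all genes. Of the 6 parents that fell in WT aged aorta and had an entry, Rpl31, Rpl7a and Rpl12 held such a start and Rps3a1, Rpl5 and Rps12 did not. The 30 bases around the start of the 5 members that held one are printed, with only the run that meets this rule in capitals. In Rpl7a, Rpl12 and Rplp2 a pyrimidine also comes directly before the capitals, so the marked run is not the full pyrimidine stretch.
Rps27rt (GRCm38.p6 chr9:114982725-114982754, minus strand): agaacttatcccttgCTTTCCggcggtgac
Rpl31 (GRCm38.p6 chr1:39367836-39367865, plus strand): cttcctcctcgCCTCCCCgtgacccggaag
Rpl7a (GRCm38.p6 chr2:26910792-26910821, plus strand): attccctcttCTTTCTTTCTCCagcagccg
Rpl12 (GRCm38.p6 chr2:32961697-32961726, plus strand): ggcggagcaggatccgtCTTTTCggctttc
Rplp2 (GRCm38.p6 chr7:141447636-141447665, plus strand): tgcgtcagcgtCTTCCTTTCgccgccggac
The retrocopy Rps27rt holds its run at the first base of the annotated start. These matches describe letters in the annotated windows only.

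Other genes of translation were called in small numbers. In WT aged aorta 5 of 22 genes with TOP messenger RNAs were called, or 22.7% of the list beside 12.0% of all tested genes called and 6.76% called lower. All 5 were lower: the intermediate filament gene Vim (−0.31, SE 0.091), the initiation factor gene Eif3f (−0.26, SE 0.086), the poly(A)-binding protein gene Pabpc1 (−0.21, SE 0.069), the splicing factor gene Hnrnpa1 (−0.16, SE 0.064) and Eif3h (−0.19, SE 0.079) in the authors' deposited table. None of the 22 was listed in the other tables. Of 42 initiation and elongation genes 2 were called in WT aged aorta, or 4.76% beside 12.0%, both lower: Eif4g2 at −0.17 (SE 0.062) and Eif1 at −0.24 (SE 0.096), in the authors' deposited table. KO young against WT aged aorta also gave 2 of 42, or 4.76% beside 7.78%. Eef2k, the kinase that inhibits elongation factor 2, was at −0.40 (SE 0.11) and Eif4g1 at −0.17 (SE 0.061) in the authors' deposited table with the sign turned. KO ageing gave 3 higher and 2 lower of these 42 genes, or 11.9% beside 14.4%. The double-stranded RNA-activated kinase gene Eif2ak2 was at −0.31 (SE 0.10), Eif1ax at −0.23 (SE 0.071), Larp4 at 0.22 (SE 0.080) and Eif2b3 at 0.24 (SE 0.095) in the authors' deposited table. Fau, which encodes a small subunit protein fused to a ubiquitin-like one, and the ribosome-bound Rack1 lie outside the naming rule and were listed nowhere.

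The ribosome biogenesis genes that were called in the ageing comparisons were all higher. In WT aged aorta 6 of 97 were called, all higher, or 6.19% of the list. Over all tested genes 12.0% were called and 5.26% were called higher, so this share is close to the background. Rrs1, which acts in large subunit assembly, was at 0.54 (SE 0.16) and Tcof1, a nucleolar factor of ribosomal RNA synthesis, at 0.33 (SE 0.092) in the authors' deposited table. In KO aged aorta 11 of 97 were called, all higher, or 11.3% of the list beside 14.4% of all tested genes called and 7.71% called higher. Urb1 was at 0.46 (SE 0.079), Ppan at 0.40 (SE 0.11), Nop16 at 0.44 (SE 0.13) and Nop2 at 0.29 (SE 0.096) in the authors' deposited table. KO young against WT aged aorta gave 3 of 97, or 3.09% of the list beside 7.78% of all tested genes called. They were 1 higher, Utp14b at 0.40 (SE 0.13), and 2 lower, Urb1 at −0.24 (SE 0.087) and Rrp9 at −0.32 (SE 0.14), in the authors' deposited table with the sign turned. Of 11 assembly chaperones and importins, only Ipo7 was listed, at −0.21 in KO young against WT aged aorta (sign turned) and 0.22 in KO ageing, in the authors' deposited tables. For Urb1 and Ipo7 both values rest on the same KO young libraries, so they do not count as separate evidence.

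Of the 21 genes on the list of mTORC1 and S6 kinase genes, 1 to 4 were called per comparison. The list also holds Myc and the RSK and MSK kinase genes, which are not parts of mTORC1. Rheb, the GTPase that activates mTORC1, was listed in all 3: at −0.36 (SE 0.097) in WT ageing, 0.30 (SE 0.073) in KO young over WT aged with the sign turned, and −0.28 (SE 0.066) in KO ageing, in the authors' deposited tables. These tables share groups in pairs, so the KO young value does not stand apart from the ageing values. Ddit4, an inhibitor of mTORC1, was higher in KO aged aorta at 1.03 (SE 0.18, adjusted p = 3.4e-08) in the authors' deposited table. KO young aorta had more RNA than WT aged aorta of Myc (0.47, SE 0.25), Rps6ka5 (0.24, SE 0.096) and Rps6ka2 (0.31, SE 0.15) in the authors' deposited table with the sign turned. Of 21 genes on this list 1 was called in WT ageing, or 4.76% beside 12.0% of all tested genes. KO young against WT aged aorta gave 4, or 19.0% beside 7.78%, and KO ageing gave 3, or 14.3% beside 14.4%.

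**Figure D5:**
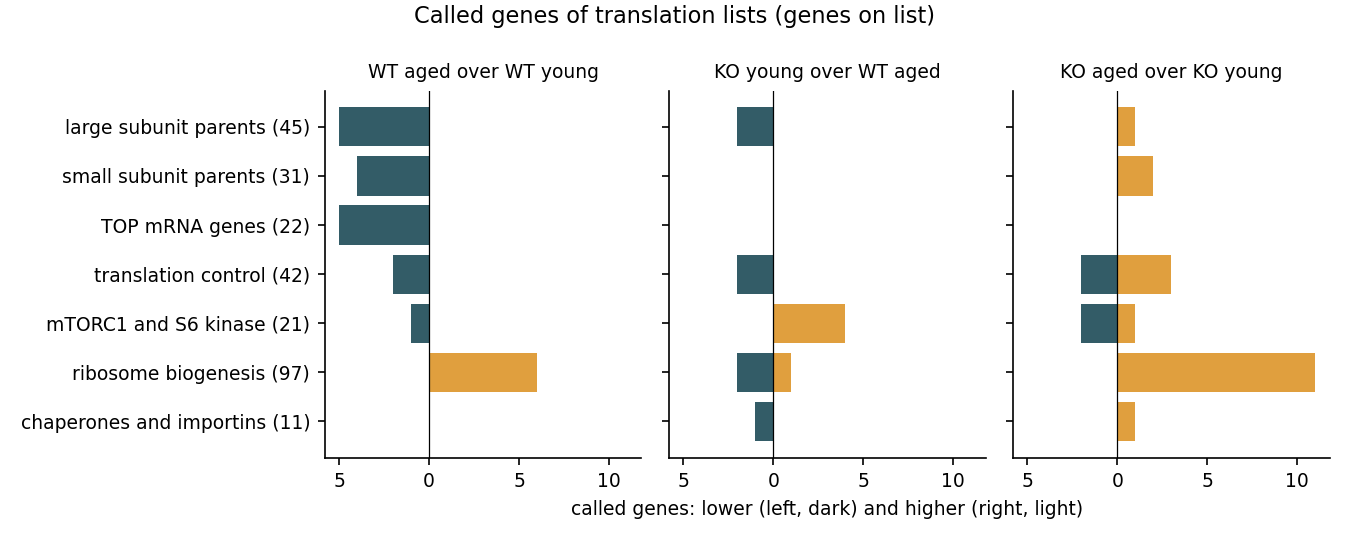
Called genes on each list (horizontal axis, number of genes), with genes lower to the left and genes higher to the right of 0, for the 3 comparisons; the number on each list is in brackets. Parent genes lie left of 0 in WT ageing (5 and 4) and right of 0 in KO ageing (1 and 2), while ribosome biogenesis genes lie right of 0 in both (6 and 11).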

How the data were processed

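RNA sequencing was done on 20 libraries of mouse aorta, 5 for each of 4 groups, prepared with a stranded kit for low input, per the labels' protocols. The submitters' processing notes name DESeq2 1.42.1, MultiQC 1.25.1, Subread 2.0.8 with featureCounts, STAR 2.7.11b and the build GRCm39; the settings of these tools are not given here. Each table deposited by the authors holds, per the file headers, a log2 fold change with its SE, a p-value with its adjusted value, and a mean normalized count (a signal over both groups). The numbers of tested genes (14374, 14661 and 14477) were computed from the adjusted and unadjusted p of the top gene, and the rank implied for the last gene equalled the number of genes in each table.

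Depth per library is unknown, so it sets no interval. The direction of fold changes was taken from group means: for a group that appears in 2 tables, the matching sides gave log2 means with a median absolute deviation of 0.0286 and 0.0353, against at least 0.185 and 0.115 for other pairings. This put aged on the positive side, so the KO young against WT aged sign was turned. Group means were computed from the mean and the fold change. The test of ageing differences was tested on simulated data. The simulated effects were not selected for being called and not shrunken, so this does not show how the test behaves on the called genes. Members and lists were chosen with earlier results of these data known. Named genes were all called members, except 1 parent gene that is counted but not reported here, and, of each other list, at most 4 per table by smallest adjusted p, with up to 3 per marker list; the fifth TOP gene is named to complete its count. Alternatives were a stricter adjusted p, a minimum count, a minimum fold and parents alone. Biopython 1.88, matplotlib 3.10.9, SciPy 1.17.1, NumPy 2.4.6 and pandas 2.3.3 were run in Python 3.11.15.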

Additional observations from a re-analysis of the deposited data

Results flagged for a closer look

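The ageing effects of 2 copies differed between genotypes by the test of the difference itself. Both copies had been called with opposite signs in WT and KO ageing, so they were likely to pass that test by selection. KO ageing minus WT ageing was −3.40 on the log2 scale for Rpl10-ps3, with a log2 fold change of −2.08 in KO ageing and 1.32 in WT ageing in the authors' deposited tables. For Rps27rt the difference was −2.37, from −1.36 in KO ageing and 1.01 in WT ageing in the authors' deposited tables. The mean normalized counts in the authors' deposited tables were 57.9 and 44.1 for Rpl10-ps3 and 82.7 and 56.4 for Rps27rt in KO and WT ageing, and each copy shares its whole coding sequence with its parent. The part of read assignment in these differences was not tested.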

How the results depend on the processing

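With an adjusted p under 0.01, 5 members were left in WT ageing (2 higher, 3 lower), 0 in the comparison of KO young with WT aged aorta and 5 in KO ageing (3 higher, 2 lower), against 11, 3 and 8 at 0.05 in the authors' deposited tables. In WT ageing this keeps both copies and 3 of the 9 parents. All 3 members of the middle comparison had an unadjusted p under 0.05, as every gene in these tables must. A minimum fold change of 0.3 in either direction (log2) left 3, 1 and 5; in WT ageing these were both copies and Rpl29. With parents alone KO ageing had 3 called members, and their median log2 fold change was 0.23 in place of −0.23, since all 4 copies were lower and are left out. The other alternatives for these counts and medians, namely a mean normalized count of at least 50, parents alone in the first 2 comparisons and ribosomal protein pseudogenes named outside the rule (chosen after seeing the data), kept each count within 1.5 times. The minimum count left out Rpl10-ps3 in WT ageing (44.1 in the authors' deposited table), so 1 higher member was left there, and the added pseudogenes brought KO ageing to 5 higher and 7 lower. The 2 ageing differences passed with an SE implied by the p (adjusted p = 7.5e-08 for Rpl10-ps3 and 1.6e-06 for Rps27rt) and with Bonferroni adjustment (0.0011 and 0.035). Both alternatives reuse fold changes of genes already called in both ageing comparisons. They therefore do not address that selection or the assignment of reads to the copies. No paired analysis was possible because the tables hold no value per library, and for the same reason no library could be left out.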

Other observations

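Pseudogenes of ribosomal proteins that carry other symbols were found by the gene name column after their values were seen. KO ageing listed 4 of them in the authors' deposited table: Gm17971 of Rps2 (−0.57, SE 0.19), Gm15772 of Rpl26 (−0.79, SE 0.50) and Gm10288 of Rpl11 (−0.65, SE 0.59) were lower in KO aged aorta, and Gm16061 of Rps2 (0.53, SE 0.24) was higher. None was listed in the other tables. Named copies of other genes gave 7 higher and 3 lower in WT aged aorta, 7 in KO young against WT aged aorta, all higher in KO young, and 5 higher and 6 lower in KO aged aorta. Chosen from these after their values were seen, Btf3-ps4, of a nascent chain factor gene, was at 0.96 (SE 0.21) in WT ageing, and Gm4366, of the elongation factor gene Eef1g, was at −0.91 (SE 0.60) in KO ageing, in the authors' deposited tables.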
